A study of Drosophila melanogaster with 12 samples.

Results

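MSTRG.267 is an assembled locus, that is, a set of overlapping transcripts that StringTie built from the reads and that carry an assembly name in place of a gene name. Its members were all rows of the deposited table whose name starts with MSTRG.267. (the dot included). The rule found 36 isoforms of the 41081 transcripts in the table and of the 5969 assembled transcripts in 2342 loci. By number of isoforms, the locus ranked 7 of 2342. The rule itself reads only names. However, the locus was chosen by the normalized counts of its isoforms in mutant against control larvae, which were known when it was proposed. For this reason, every value that contrasts the genotypes is given as a description. The counts that a model fitted to all transcripts called between the genotypes stand beside the share called over all transcripts, and nothing is read from them. Only contrasts of the sexes serve as tests.

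Whole third-instar larvae were sequenced in 4 groups of 3 libraries. The control females and control males were +/+. The mutant females and mutant males were Iswi1/Iswi2, carrying different point alleles of *ISWI* on their homologous chromosomes, and were picked as larvae without the GFP of the balancer. Both parental stocks of the mutants were *yw*, while the control larvae were wild-type flies, so that effects of the alleles and of the strain background cannot be told apart. Each library was a pool of larvae, and between 89290368 and 119202607 reads per library were assigned to transcripts. MSTRG.267 held between 4006 and 26729 reads, or 0.0041% to 0.023%.

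ISWI is the ATPase subunit of several nucleosome remodeling complexes, which slide and space nucleosomes along DNA. In *Drosophila*, its loss is known for a loosened X chromosome in males. A gene gives different isoforms when promoters, splice sites or ends are used differently. StringTie rebuilds isoforms from spliced short reads and divides the reads of shared exons among them. The level of an isoform is therefore an estimate of this division, and isoforms of a locus are not independent measurements. The table gives neither a gene name, a position, an exon structure nor a sequence for MSTRG.267, and 0 of the 36 names matched the gene tables used here. Whether the isoforms are coding or non-coding is not stated in the table.

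The level of an isoform is its normalized count, the read count divided by a size factor of the library. The share of an isoform is its percent of the summed normalized count of all 36 isoforms in the same library, called the locus sum. Known transcripts carry other names, so any that lie at the same position are not part of this sum. Without a position, they could not be looked for. Shares do not depend on the size factor. They are not corrected for the length of the isoform, which was not known, so they are shares of reads and not of molecules. Isoforms with 3 or fewer reads were counted as not detected. With this limit, an isoform counted as not detected can hold a share of up to 0.011% to 0.075%, depending on the library. The Wilson 95% confidence interval of a share in a single library reached at most 1.19 points to either side, which covers counting error only.

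The locus sum was highest in control females and lowest in mutant females. In control females, it was 21645, 12345 and 18635 in replicates 1, 2 and 3. In control males, it was 17252, 16032 and 6439. Replicate 3 of control males was the lowest control library and lay below 4 of the 6 mutant libraries. In mutant females, the sums were 8414, 7011 and 4492, and in mutant males 5154, 16298 and 7485. In whole larvae, fewer cells that use the locus and less RNA per cell cannot be told apart. Replicate 2 of mutant males stood at the level of the control libraries. By mean, the groups were ordered control females, control males, mutant males and mutant females. Each group overlapped its neighbors in this order, and among all pairs of groups only control females and mutant females did not overlap.

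A few isoforms held most of the locus. Over the 12 libraries, MSTRG.267.22 had the highest mean share with 15.998%, followed by MSTRG.267.1 with 13.5%. The next were MSTRG.267.34, MSTRG.267.32, MSTRG.267.20 and MSTRG.267.36 with 7.77%, 7.32%, 6.80% and 5.84%. These 6 isoforms held 57.2% of the reads together, and 16 of the 36 isoforms had a mean share under 1%. The effective number of isoforms is 1 divided by the sum of the squared shares, and it counts how many equally abundant isoforms would give the same evenness. It was 8.21 ± 2.11 (SD, n = 3) in control females and 8.01 ± 2.46 in control males. The mutant means were 8.69 ± 0.09 for females and 8.80 ± 0.23 for males. All 6 mutant libraries lay within the range of the controls, whose spread was wider. The isoforms that led were different, with MSTRG.267.1 first in 5 control libraries, MSTRG.267.22 in the 3 mutant females, and MSTRG.267.32 or MSTRG.267.24 in the mutant males.

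**Figure D1:**
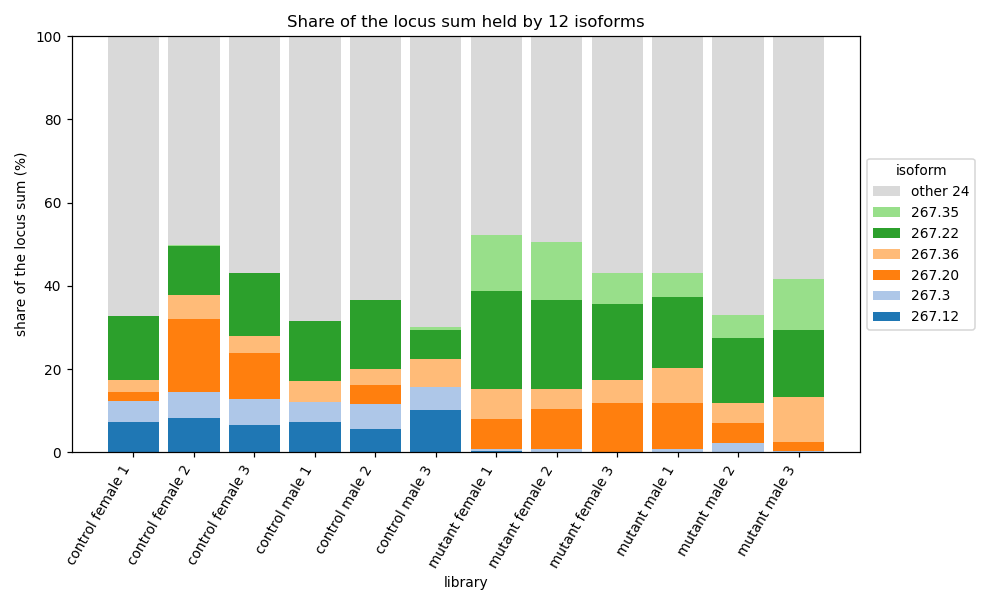
Share of the locus sum (percent, vertical axis) of MSTRG.267.22, MSTRG.267.20, MSTRG.267.36, MSTRG.267.35, MSTRG.267.12 and MSTRG.267.3 in each of the 12 libraries. All other isoforms are in grey, among them MSTRG.267.1, MSTRG.267.32 and MSTRG.267.34. The numbers of isoforms given in its title and legend are not those drawn. Within the grey part, MSTRG.267.1 takes between 17.03% and 35.71% of every control library and at most 0.38% of a mutant library. MSTRG.267.32, also in grey, takes at least 10.2% of every mutant library.

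MSTRG.267.1 was the leading isoform in 5 of the 6 control libraries. Its normalized count was 7606, 2102 and 4377 in control females and 5048, 5725 and 1303 in control males. In mutants, it was 25.5, 26.4 and 2.24 in females and 0.99, 2.51 and 4.71 in males. No mutant library came near the lowest control library. Its share was 25.2% ± 9.2 (SD, n = 3) in control females and 28.4% ± 7.8 in control males, against 0.24% ± 0.17 in mutant females and 0.033% ± 0.026 in mutant males. On the log2(normalized count + 1) scale, the difference between mutant and control was -8.28 (standard error 0.92) in females and -9.94 (standard error 0.92) in males. The mutant males had only 1, 3 and 4 reads of it, and mutant female replicate 3 had 2. The size of the difference, above all in males, thus depends on the 1 added to each count.

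MSTRG.267.12 showed the same pattern at a lower level. Its counts were 1589.6, 1031 and 1225 in control females and 1272, 917 and 653 in control males. Mutant females had 21.9, 0 and 1.12, and mutant males 0.99, 7.52 and 0. Again the highest mutant library lay far below the lowest control library. Its share of 7.42% ± 0.89 and 7.75% ± 2.23 in control females and males was among the steadiest of the larger isoforms.

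MSTRG.267.3 and MSTRG.267.27 were lower in mutants but did not vanish. MSTRG.267.3 held 5.77% ± 0.66 of the locus in control females and 5.42% ± 0.60 in control males, against 0.52% ± 0.39 and 1.14% ± 0.95 in mutant females and males. Its counts lay between 360 and 1144 in controls and between 4.49 and 361 in mutants. The only overlap was between mutant male replicate 2 with 361.1 and control male replicate 3 with 359.6. MSTRG.267.27 was even among the controls, with 753, 833 and 667 in females and 736, 722 and 553 in males. Mutant females had 181, 98.7 and 92.0 and mutant males 146, 224 and 101, below every control library. The difference was -2.65 on the log2 scale in females (standard error 0.36) and -2.15 in males (standard error 0.36).

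In the opposite direction, MSTRG.267.32 had the largest gain of share, 13.5 percentage points. Its counts were 22.7, 129 and 9.16 in control females and 136, 33.3 and 77.7 in control males. Mutant females had 1031, 718 and 767, and mutant males had 989, 2116 and 951. Every mutant library exceeded every control library by more than 5 times. The isoform moved from rank 22 to rank 2 of the locus in females and from rank 20 to rank 2 in males.

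MSTRG.267.35 was nearly silent in controls, with 0, 35.7 and 0 in females and 28.1, 0 and 52.6 in males. It had 1130.2, 974 and 333 in mutant females and 288, 881 and 929 in mutant males. Here too the genotypes did not overlap, with shares of 11.6% ± 3.6 and 7.80% ± 3.99 in mutant females and males.

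MSTRG.267.34 was not limited to mutants. Its counts were 656, 413 and 688 in control females and 576, 989 and 702 in mutant females, which overlapped. In males, they were 179, 460 and 327 in controls and 779, 1878 and 823 in mutants, without overlap. Its share was 3.36% ± 0.33 and 2.996% ± 2.023 in control females and males against 12.2% ± 4.7 and 12.5% ± 2.2 in mutants, and the 6 mutant shares all exceeded the 6 control shares. MSTRG.267.29 was alike in share, but its counts overlapped between the genotypes in males as well as in females. Its share was 1.72% ± 0.19 and 1.21% ± 0.35 in control females and males against 4.46% ± 0.43 and 3.19% ± 1.02 in mutants. The share is relative to the locus sum, which was also lower in most mutant libraries.

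**Figure D2:**
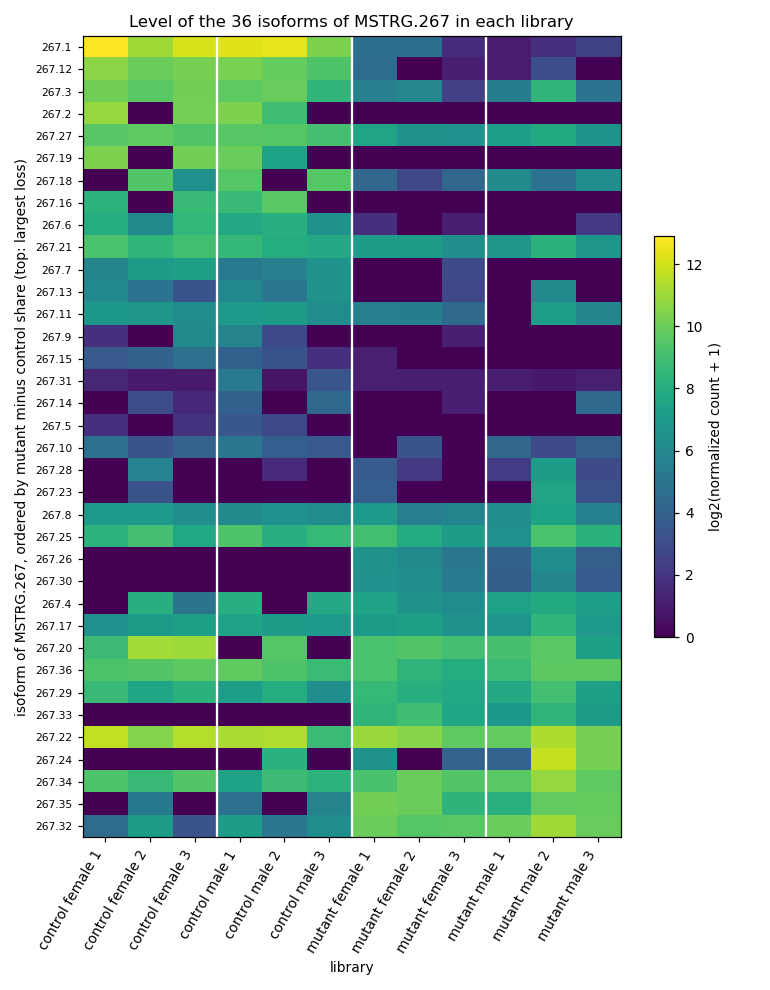
Level of the 36 isoforms (rows) in the 12 libraries (columns) as log2(normalized count + 1), ordered by the difference between the mutant and the control share. The upper rows (MSTRG.267.1, MSTRG.267.12) are bright in controls and dark in mutants, the lower rows (MSTRG.267.35, MSTRG.267.32) the reverse, and MSTRG.267.22 is bright in all libraries.

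Several isoforms were detected in a single genotype. How many isoforms of other loci were so was not counted, so nothing is read from their number. In all 6 control libraries, 3 isoforms (MSTRG.267.26, MSTRG.267.30 and MSTRG.267.33) had 0 reads. MSTRG.267.33 had counts of 346, 484 and 195 in mutant females and 115, 342 and 140.2 in mutant males. Against 3 reads per control library, this is at least 131-fold higher in females and at least 70.5-fold higher in males. MSTRG.267.26 and MSTRG.267.30 were low and close to each other in every mutant library. MSTRG.267.26 had 97.2, 67.7 and 34.8 in mutant females and 14.8, 80.2 and 14.1 in mutant males. MSTRG.267.30 had 89.9, 82.6 and 38.1 in mutant females and 12.8, 59.3 and 11.8 in mutant males. Mutant females devoted 7.12% ± 1.68 of the locus to these 3 isoforms and mutant males 2.64% ± 0.38, and the mutant sexes did not overlap in this sum. By normalized count, each of the 3 isoforms overlapped between the mutant sexes. Separation of such sums by sex was not counted over other loci, so nothing is read from it.

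At most 3 reads were found in all 6 mutant libraries for 8 isoforms. This number was not counted over other loci either. The locus held fewer reads in most mutant than in most control libraries. There, the limit of 3 reads stands for a higher share, and a minor isoform falls under it more easily. Of the 8 isoforms, MSTRG.267.6 was present in every control library, with 251, 69.7 and 366 in females and 216, 270.3 and 95.2 in males. It was at least 65.7-fold lower in mutant females and at least 64.6-fold lower in mutant males. MSTRG.267.15 was low in controls, between 2.51 and 28.4, and at most 1.22 in mutants. MSTRG.267.31 had a single read in 9 of the 12 libraries and reached 39.4 in control male replicate 1. The other 5, MSTRG.267.2, MSTRG.267.5, MSTRG.267.9, MSTRG.267.16 and MSTRG.267.19, were not detected in every control library either.

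These 5 isoforms had 0 reads in control female replicate 2 and in control male replicate 3, and reads in each of the other 4 control libraries. MSTRG.267.2 had 1843, 0 and 1177 in control females and 1287, 481 and 0 in control males. MSTRG.267.19 had 1283, 0 and 1141 in control females and 969, 179 and 0 in control males. MSTRG.267.16 had 321, 0 and 426 in control females and 415, 768 and 0 in control males. The control libraries with 0 reads were thus the same for all 5. By the limit of 3 reads, however, MSTRG.267.5 was not detected in any control female library, and MSTRG.267.9 not in control female replicate 1. Summed, the 5 isoforms held between 8.98% and 15.9% of the locus in the 4 control libraries that had them. In the mutant libraries, their sum was at most 1.12. Across the 6 control libraries, the correlation of log2 counts was 0.98 between MSTRG.267.2 and MSTRG.267.16 and 0.96 between MSTRG.267.16 and MSTRG.267.19. It was lower for MSTRG.267.9, with 0.79 to MSTRG.267.2 and 0.78 to MSTRG.267.16. The points share the division of reads among the isoforms, and 2 of the 6 are at 0 for all of these isoforms. The pattern was noticed after the values were seen.

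Other isoforms went the other way among the controls. MSTRG.267.18 had 0, 692 and 88.9 in control females and 712, 0 and 716 in control males. MSTRG.267.4 had 0, 275 and 30.2 in control females and 277, 0 and 218 in control males, with a correlation to MSTRG.267.18 of 0.998 over the 6 libraries on the log2 scale. Both were thus high in the 2 control libraries that lacked the group of 5, and also in control male replicate 1, which had that group. In mutants, the pair came apart. MSTRG.267.4 had between 75.1 and 229 in the 6 mutant libraries, while MSTRG.267.18 had between 5.74 and 79.0.

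MSTRG.267.20 and MSTRG.267.24 varied as strongly between replicates. MSTRG.267.20 had 461, 2176 and 2068 in control females and 0, 725 and 0 in control males. It was present in all mutants, with 608, 672 and 524 in females and 566, 777 and 152 in males. MSTRG.267.24 had 0 in all control libraries other than control male replicate 2, where it had 299.8. In mutants, it had 97.2, 0 and 15.7 in females and 15.8, 3452 and 1217 in males. It was the leading isoform in mutant male replicates 2 and 3, and its mean share in mutant males was 12.6% ± 10.9. In all, 9 of the 36 isoforms had at most 3 reads in a library and a count over 100 in another library of the same group. Isoforms of this kind were not counted for other loci, so nothing is read from the number. Such isoforms numbered 5 for the female and 7 for the male controls. They numbered 0 for the female mutants and 2 for the male mutants, which were MSTRG.267.11 and MSTRG.267.23. MSTRG.267.23 had 182 in mutant male replicate 2 and at most 13.4 elsewhere.

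The remaining abundant isoforms were present throughout. MSTRG.267.22 had 3317, 1464 and 2816 in control females and 2477, 2641 and 442 in control males. Its counts were 1991, 1493 and 818 in mutant females and 884, 2554 and 1199 in mutant males, inside the range of the controls. Its share was 21.05% ± 2.74 and 16.3% ± 0.8 in mutant females and males, against 14.1% ± 1.9 and 12.6% ± 5.0 in controls. By mean share, it ranked first in both mutant groups, although other isoforms led in each mutant male library. MSTRG.267.36 had between 436 and 859 in controls and between 251 and 812 in mutants. MSTRG.267.25, MSTRG.267.21, MSTRG.267.17 and MSTRG.267.8 also had more than 3 reads in all 12 libraries, and their counts overlapped between the genotypes. In total, 11 of the 36 isoforms had more than 3 reads in every library.

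The 14 isoforms whose shares did not overlap between the 6 mutant and the 6 control libraries accounted for most of the exchange. They were 7 with lower and 7 with higher shares in mutants. Among the 1528 isoforms of the other 90 assembled loci with at least 10 isoforms, 5.30% had a higher and 5.24% a lower share in all mutants. The locus was chosen with this contrast known, so nothing is read from the number. The 7 isoforms with lower shares were MSTRG.267.1, MSTRG.267.3, MSTRG.267.6, MSTRG.267.7, MSTRG.267.12, MSTRG.267.15 and MSTRG.267.27. Together they held 45.1% ± 6.5 of the locus in control females and 49.5% ± 3.8 in control males, against 2.80% ± 0.48 and 3.07% ± 1.05 in mutants. The 7 with higher shares were MSTRG.267.26, MSTRG.267.29, MSTRG.267.30, MSTRG.267.32, MSTRG.267.33, MSTRG.267.34 and MSTRG.267.35. They went from 5.57% ± 0.59 and 5.27% ± 2.80 in control females and males to 48.5% ± 4.3 and 41.1% ± 5.4 in mutants.

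The summed counts show the levels behind these shares. Since the sets were picked by shares in these same libraries, a gap between the genotypes in their sums follows in part from that choice. Females had a sum of 8088 ± 3205 (SD, n = 3) as controls and 192 ± 87 as mutants for the 7 isoforms with lower shares. In males, this sum was 6615 ± 3089 in controls and 308 ± 249.8 in mutants. The 7 with higher shares summed to 959 ± 170 in control females and 3181 ± 780.1 in mutant females, and to 590 ± 135 in control males and 3776 ± 1853 in mutant males. For the other 22 isoforms, the sum was 8494 ± 1631 in control females and 3267 ± 1182 in mutant females, without overlap. In males, the sum of these 22 was 6036 ± 2936 in controls and 5561 ± 3790.2 in mutants, and the libraries overlapped. The higher isoforms thus gained fewer counts than the lower isoforms lost.

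**Figure D3:**
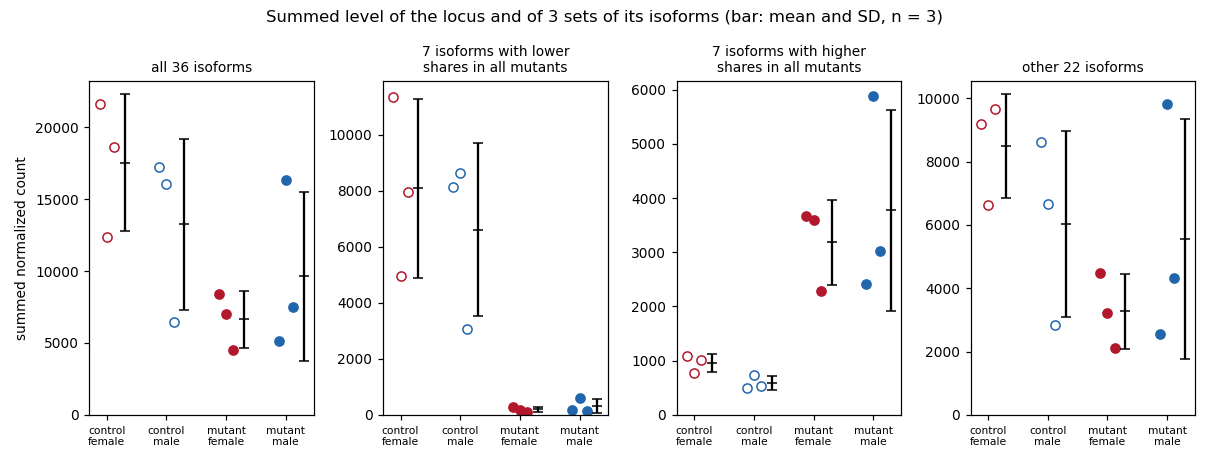
Summed normalized count (vertical axes, each from 0) of all 36 isoforms and of 3 sets of isoforms in control (open) and mutant (filled) libraries of females (red) and males (blue), with the mean and SD of 3 libraries. The 7 isoforms with lower shares reach at most 595 in a mutant library and at least 3060 in a control library, and the 7 with higher shares at most 1095 in a control library and at least 2281 in a mutant library. Both sets were picked by their shares in these same libraries, so such gaps follow in part from that choice.

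In the limma fit over 35284 transcripts, 32 of the 36 isoforms passed the filter (3 or more libraries with a normalized count of 10 or more). The 4 that did not were MSTRG.267.5, MSTRG.267.9, MSTRG.267.23 and MSTRG.267.31, with counts of up to 182 in a single library. Between mutant and control females, the fit put 13 isoforms under an adjusted p-value of 0.05, 5 higher and 8 lower, where 12.8% of all transcripts tested were called (7.12% higher and 5.68% lower). Between mutant and control males, it put 12 isoforms there, 6 higher and 6 lower, where 16.2% of all transcripts were called (7.11% higher and 9.12% lower). The locus was chosen on these contrasts, so the counts are not tests of it. The median log2 difference of the 32 isoforms was -1.12 in females and -0.50 in males, against 0.00 and -0.10 over all transcripts. With the 10 isoforms at the limit of detection in a group set to their bound, it was -1.001 in females and -0.50 in males.

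The normalized counts of the 6 mutant libraries all lay above the 6 control libraries for 5 of the 32 isoforms and all below for 6. Over all transcripts, the percentages were 7.05% and 5.83%. The 5 higher isoforms were MSTRG.267.26, MSTRG.267.30, MSTRG.267.32, MSTRG.267.33 and MSTRG.267.35. The 6 lower were MSTRG.267.1, MSTRG.267.6, MSTRG.267.7, MSTRG.267.12, MSTRG.267.15 and MSTRG.267.27. MSTRG.267.7 had between 38.5 and 157 in the controls, 6.73 in mutant female replicate 3 and 0 in the other 5 mutant libraries.

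The sexes could be tested, since they played no part in the choice of the locus. In the limma fit, 0 of the 32 isoforms differed between control males and control females, where 9.30% of all transcripts were higher and 0.692% lower in males. Likewise, 0 differed between mutant males and mutant females, where 2.99% were higher and 0.213% lower. At an unadjusted p-value under 0.05, there was 1 isoform in controls and 2 in mutants, where 16.87% and 11.98% of all transcripts were under it. Some isoforms passed the filter only through the other genotype. MSTRG.267.26, MSTRG.267.30 and MSTRG.267.33 had no reads in controls, and MSTRG.267.2, MSTRG.267.16 and MSTRG.267.19 none in mutants. Their sexes could not differ there. When only the 2 groups compared were fitted, 26 isoforms in controls and 20 in mutants passed the filter. Of these, 0 were called in both comparisons, where 11.3% and 1.04% of all transcripts were called. With edgeR's quasi-likelihood test on reads recovered from the normalized counts, 0 were called in both comparisons, where 6.55% of all transcripts were called in controls and 0.862% in mutants. DESeq2 called 1 in controls and 0 in mutants, where 12.2% and 6.94% of all transcripts were called. The isoform called by DESeq2 was MSTRG.267.24, which had reads in 1 of the 6 control libraries.

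The lowest adjusted p-value between control males and females belonged to MSTRG.267.20 (adjusted p = 0.064 from limma), with a difference of -7.15 on the log2 scale (standard error 2.11). Without control male replicate 2, the only control male library with reads of this isoform, it was called at an adjusted p = 1.5e-04. In mutants, the lowest belonged to MSTRG.267.10 (adjusted p = 0.29), a minor isoform that had 0, 9.18 and 0 in females and 17.8, 6.69 and 14.1 in males. Without mutant female replicate 2, it was called with an adjusted p = 0.045. By normalized count, MSTRG.267.18 was the single isoform whose 3 mutant male libraries all lay above the 3 mutant female libraries. It had 71.1, 28.4 and 79.0 against 18.2, 5.74 and 17.9, where 9.91% of all transcripts lay so. It was not called (adjusted p = 0.85 from limma). In controls, 0 of the isoforms had normalized counts of the sexes that did not overlap, where 23.1% of all transcripts did. By share, MSTRG.267.18 overlapped between the mutant sexes. The shares of MSTRG.267.26, MSTRG.267.30 and MSTRG.267.33 were lower in each mutant male than in each mutant female library. Separation of single shares by sex was not counted over other loci, so nothing is read from it.

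As single values per library, the locus sum, the effective number of isoforms and the share of MSTRG.267.22 were compared between males and females by an exact two-sided permutation of the sexes within each genotype, with 400 relabelings. Males minus females, the log2 locus sum differed by -0.04 (exact permutation p = 0.90, 0.95 after adjustment over the 3 values). The effective number differed by -0.05 isoforms (exact permutation p = 0.95, adjusted 0.95). The share of MSTRG.267.22 differed by -3.15 percentage points (exact permutation p = 0.11, adjusted 0.33), and it was lower in each mutant male than in each mutant female library. None of the 3 differences exceeded the spread of the libraries, which does not show that the sexes are alike.

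The division of the reads was then compared library by library. The share distance of a pair of libraries is the sum of the absolute differences of the 36 shares divided by 2, that is, the percent of the reads that is assigned to different isoforms. Among replicates, it was 24.9% on average over 12 pairs, with a range from 14.4% to 41.3%. Between a control and a mutant library, it was 62.3% on average over 36 pairs, with a range from 52.0% to 68.2%. Each of these 36 distances thus exceeded each of the distances between replicates. Between males and females of a genotype, it was 25.8% on average over 18 pairs, with a range from 10.1% to 42.1%. This range passed that of the replicates slightly at both ends.

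Within genotypes, mutant libraries lay closer together than control libraries, with means of 20.2% and 29.6% among replicates. The closest pair of all crossed the sexes, mutant female replicate 3 and mutant male replicate 1 at 10.1%. Mutant male replicates 2 and 3, in which MSTRG.267.24 led, were 15.7% apart and between 25.1% and 30.4% from the other mutants. Among the controls, the largest distance was 42.1%, between control female replicate 1 and control male replicate 3. Control female replicate 2 and control male replicate 3, the libraries without the group of 5 isoforms, were 24.1% apart. When these 2 libraries were left out, a choice made on seeing the values, the distance between genotypes exceeded that between replicates by 43.6 points, against 37.5 points with all libraries.

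**Figure D4:**
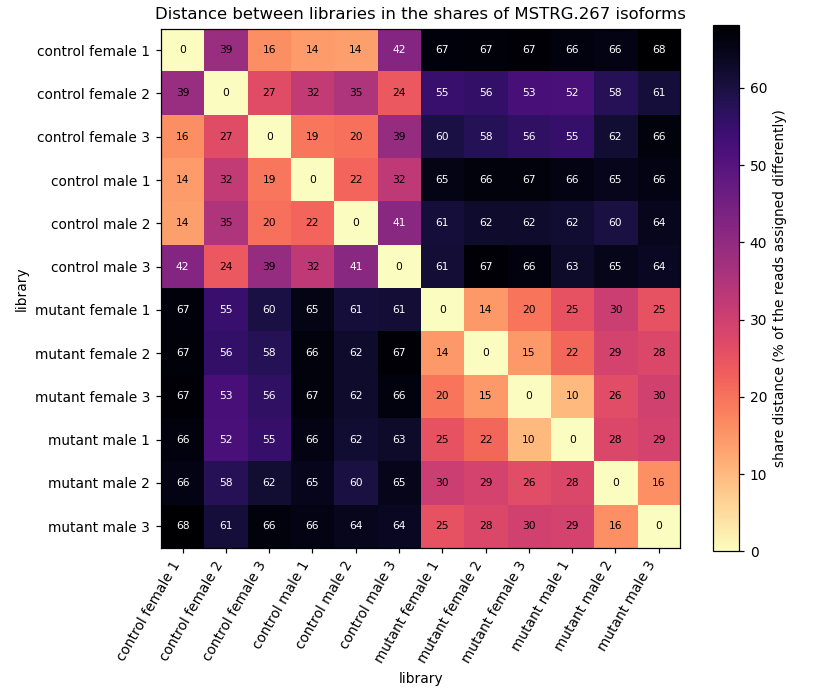
Share distance (percent of reads assigned to different isoforms) for each pair of the 12 libraries, from light (close) to dark (far). The pairs of a control and a mutant library all lie between 52.0% and 68.2%, above every pair within a genotype.

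The same distances were computed for all 91 assembled loci with at least 10 isoforms. MSTRG.267 ranked 24 of 91 by mean locus sum and 9 of 91 by effective number of isoforms, with 8.43 over the 12 libraries against a median of 4.27. Its mean distance between replicates ranked 69 of 91, with a median of 34.9% over the loci. Its distance between genotypes ranked 23 of 91, with a median of 45.9%. The excess of the latter over the former, 37.5 points, ranked 8 of 91, where the median was 6.22 points and the range went from -4.75 to 62.8 points. Thus 7 other loci showed a larger excess. The distance between the sexes of a genotype ranked 67 of 91, with a median of 36.2%.

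**Figure D5:**
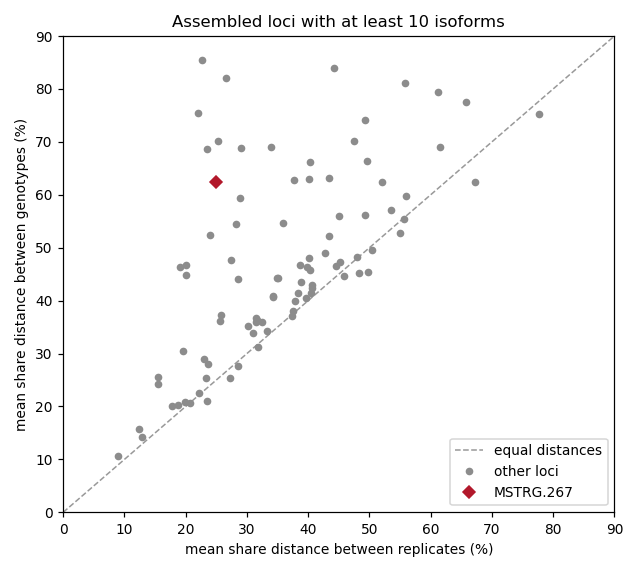
Mean share distance between genotypes (vertical axis, percent) against that between replicates (horizontal axis, percent) for 91 assembled loci with at least 10 isoforms. MSTRG.267 (red diamond, 24.9% and 62.3%) lies above the dashed line of equal distances, and 7 other loci lie farther above it.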

How the data were processed

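RNA from whole larvae was depleted of ribosomal RNA. Per the labels and methods, the reads were trimmed with Trimmomatic (version 0.39), mapped to BDGP6 with HISAT2 (version 2.2.1), assembled and quantified with StringTie (version 2.1.5) and normalized in DESeq2 (version 1.32.0). The signal deposited by the authors is thus a normalized count per transcript, a read count over the size factor of its library. Divided by the worth of 1 read, 100% of all values below 1000 reads came out whole (tolerance 0.01). These whole values are called reads throughout. They rest on the StringTie quantification and so hold its estimated division of reads among isoforms.

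Limma (version 3.58.1, R version 4.3.3) was run on log2(normalized count + 1) of transcripts that reached 10 in 3 or more libraries, with 4 group means, an intensity trend and Benjamini-Hochberg adjustment over 35284 transcripts. As alternatives, edgeR (version 4.0.16) and DESeq2 (version 1.42.0) used the whole reads. The limma fit was tested on simulated data. Groups came from the labels. Each library is a pool of larvae, and whether the pools came from separate cultures is not stated, so p-values measure the spread between these libraries.

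The isoforms named were those with the 6 highest mean shares, the 3 largest gains and the 3 largest losses of share from control to mutant, and those with at most 3 reads in every library of a genotype. Isoforms called between the sexes would have been named too, but there were 0. Any other isoform named was chosen after its values were seen. The members and rules were chosen with earlier results of these data known. The alternatives tried were other tests, TMM, other filters and pseudocounts, fits of 2 groups, a replicate block, leaving out libraries, other measures of evenness and distance, and CPM from whole reads. The transcript identifiers were not paired with gene names here, so sex and tissue marker genes were not checked.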

Additional observations from a re-analysis of the deposited data

How the results depend on the processing

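Of the counts of isoforms called, those between the genotypes were within 1.5 times of the values given under all alternatives other than a count of at least 10 in every library, which left 9 isoforms and called 2 in females and 2 in males (16.8% and 17.1% of all transcripts). Leaving out single libraries gave 11 to 15 in females (7.80% to 14.3% of all transcripts) and 9 to 13 in males (9.50% to 18.6%). Without control female replicate 2 and control male replicate 3, left out on seeing that 5 isoforms had 0 reads there, the genotype counts were 16 and 14 of 30 isoforms (7.47% and 8.78% of all transcripts). Counts between the genotypes are descriptions. Between the sexes, DESeq2 called 1 isoform in controls, and leaving out a library gave 0 to 1 in controls (7.98% to 10.5% of all transcripts) and 0 to 1 in mutants (2.1996% to 3.62%). For the sexes, the log2 locus sum changed sign with CPM (0.0926) and ranged from -0.27 to 0.19 without single libraries, and without control female replicate 2 and control male replicate 3 it was 0.0717. The effective number changed sign with the Shannon entropy (0.20) and ranged from -0.71 to 0.50, and the share of MSTRG.267.22 from -4.13 to -1.73 points. The excess of the distance between genotypes was 68.0 with 100 times 1 minus Pearson's correlation as distance, which is another scale, and 35.3 to 40.4 points without single libraries. The cause of these changes was not tested. The control call without a library came without control male replicate 2 (MSTRG.267.20) and the mutant call without mutant female replicate 2 (MSTRG.267.10).

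Same-numbered libraries deviated from their group means with correlations between -0.02 and 0.19 across transcripts, so the numbers were not taken as pairs. With the replicate block, 13 isoforms were called between mutant and control females (12.5% of all transcripts) and 11 between mutant and control males (15.1%), and 0 between the sexes in both genotypes (9.57% and 2.49%). The Wilson 95% interval reached at most 1.19 points to either side of a share in a single library. It takes each read assigned to an isoform as an independent count and leaves out the error of that assignment.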

Other observations

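Among 1033 other assembled loci with 2 or more isoforms whose sum reached 10 in 3 or more libraries, the log2 sum of MSTRG.320, with 10 isoforms, was most like that of MSTRG.267 over the 12 libraries (Pearson r = 0.94). The next were MSTRG.4403 with 6 isoforms and MSTRG.12813 with 3 isoforms (both r = 0.90), MSTRG.692 with 2 isoforms and MSTRG.5145 with 38 isoforms (both r = 0.90). The mean sum of MSTRG.320 was 29422.5 in control and 21355 in mutant libraries, and that of MSTRG.4403 was 22792 and 12142. Among 27842 known transcripts, FBtr0081001 (r = 0.95), FBtr0330613 (r = 0.94) and FBtr0083550 (r = 0.94) were most like it. FBtr0083550 had a mean of 85.2 in control and 4.74 in mutant libraries. These are the highest of many correlations over 12 libraries that differ in genotype and sex, and they are given as a description.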
